A study of Mus musculus with 16 samples.

Results

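The cyclic AMP responsive early genes described here are Nr4a1, Nr4a2, Nr4a3, Creb1, Crem, Fos, Junb, Rgs2, Akap12 and Sik1, 10 of the 46078 Ensembl gene identifiers counted. They were picked by symbol, and all 10 passed the filter on low counts in each comparison. Poly(A)-selected RNA was sequenced from brown fat (BAT) and inguinal white fat (WAT) of female wild-type C57BL/6 mice aged 16 weeks. The groups were BAT_5C, BAT_30C, WAT_5C and WAT_30C, with 4 libraries each. Mice of all 4 groups were bred and weaned at 30 °C, near thermoneutrality, and went without food for 2 to 3 hours before collection. The 5 °C mice had left 30 °C at 10 to 12 weeks of age, spent 2 weeks at 18 °C and then 3 weeks at 5 °C, while the 30 °C mice stayed where they were. The question for these genes is whether weeks of cold keep them raised. No library was taken early in the cold, so only levels after these weeks can be compared.

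Noradrenaline from sympathetic nerves activates beta-adrenergic receptors of fat cells and raises cyclic AMP, which releases the catalytic subunits of protein kinase A. The kinase phosphorylates the transcription factor CREB, which binds cyclic AMP response elements and switches on a first wave of genes within minutes to hours. Several products of this wave, such as the short CREM repressor ICER, RGS2 and SIK1, in turn restrain the pathway, and in brown fat an acute cold exposure is known to induce NR4A receptors transiently.

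Several features of the libraries bear on the values below. Depth was 54264023 to 71289020 counts per library, and levels are counts per 1000000 (CPM) on library sizes scaled by the trimmed mean of M-values (TMM) over all 16 libraries. The tissue entry of the brown fat libraries reads "Inguinal BAT", and for 4 of the 8 BAT libraries (BAT_5C replicates 1 and 2, BAT_30C replicates 3 and 4) a source label gives the opposite temperature to the title and housing label used here. Ucp1, the uncoupling protein that defines brown fat, had 12388 to 13787 CPM in the BAT_5C libraries and 634 to 2019 CPM in the BAT_30C libraries, which did not overlap. In WAT it had 6.08 to 399 CPM at 5 °C and 0.08 to 0.32 CPM at 30 °C. The library WAT_5C replicate 1 stood apart: although labelled female it had 3 counts of Xist and 17183 counts of 4 Y-linked genes, where the other 15 libraries had 11136 to 88934 and at most 45. Its summed mammary epithelium markers were 26.2 CPM and its T and NK cell markers 128 CPM, against 1730 to 1777 CPM and 471 to 569 CPM in the other WAT_5C libraries. Its skeletal muscle markers summed to 6616 CPM, against 21.6 to 236 CPM in those 3 and 121 to 9621 CPM in the WAT_30C libraries. Estimates for the 10 genes that include WAT_5C are therefore given with and without it. Nothing in the labels ties each library to its own mouse, and p-values therefore measure spread among libraries.

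CREB acts at the promoters of its target genes. RefSeq sequence of the 250 bases before the annotated start (build GRCm38.p6) was at hand for 7 of the 10 genes: Nr4a1, Nr4a2, Nr4a3, Creb1, Fos, Junb and Rgs2. The core of the cyclic AMP response element, TGACG or its reverse complement CGTCA, was searched on both strands; the full element, TGACGTCA, contains both. It was in 6 of the 7 promoters, against 17.8% of 32851 mouse promoters of the same length. Promoters of like genes held it often too: 20 of 35 (57.1%) from the list of other immediate early genes used below, and 4 of 10 from the list of cold and cyclic AMP responsive genes of brown fat. The NR4A trio had 4 cores each, a number reached by 0.137% of all promoters, Fos and Rgs2 had 2 each, Junb had 1 and Creb1 had none in this window. The full element was in 0 of the 7, against 1.55% of all promoters. The 3 NR4A promoters are shown because they hold the most cores, and those of Fos and Rgs2 because both genes passed the test in brown fat; capitals mark the cores, and each line runs 5′ to 3′ along the gene's own strand.
Nr4a1, chr15:101266596-101266845, plus strand: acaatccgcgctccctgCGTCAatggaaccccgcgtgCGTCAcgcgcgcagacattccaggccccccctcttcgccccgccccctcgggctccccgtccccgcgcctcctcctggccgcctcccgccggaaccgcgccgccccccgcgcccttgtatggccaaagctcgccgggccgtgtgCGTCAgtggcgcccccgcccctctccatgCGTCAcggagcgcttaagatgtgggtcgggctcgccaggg
Nr4a2, chr2:57124004-57124253, minus strand: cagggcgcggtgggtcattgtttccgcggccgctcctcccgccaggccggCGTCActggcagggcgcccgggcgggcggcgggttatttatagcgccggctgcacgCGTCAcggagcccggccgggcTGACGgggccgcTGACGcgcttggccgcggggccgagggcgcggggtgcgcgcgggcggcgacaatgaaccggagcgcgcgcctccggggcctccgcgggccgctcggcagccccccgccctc
Nr4a3, chr4:48045055-48045304, plus strand: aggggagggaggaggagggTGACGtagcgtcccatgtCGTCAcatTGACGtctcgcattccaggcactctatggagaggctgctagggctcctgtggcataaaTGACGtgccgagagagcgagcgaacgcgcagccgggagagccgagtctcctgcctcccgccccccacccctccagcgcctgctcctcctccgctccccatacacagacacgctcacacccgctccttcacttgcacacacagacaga
Fos, chr12:85473640-85473889, plus strand: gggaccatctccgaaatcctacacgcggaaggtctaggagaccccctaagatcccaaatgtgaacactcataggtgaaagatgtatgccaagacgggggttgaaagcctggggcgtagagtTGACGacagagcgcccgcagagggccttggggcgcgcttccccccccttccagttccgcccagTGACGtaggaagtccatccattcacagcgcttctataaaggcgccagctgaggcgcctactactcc
Rgs2, chr1:144004150-144004399, minus strand: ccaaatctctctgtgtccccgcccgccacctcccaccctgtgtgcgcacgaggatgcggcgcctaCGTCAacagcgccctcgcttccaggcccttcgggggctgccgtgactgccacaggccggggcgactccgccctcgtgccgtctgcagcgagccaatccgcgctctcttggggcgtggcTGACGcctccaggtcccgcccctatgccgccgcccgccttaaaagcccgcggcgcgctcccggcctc

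Nr4a2, an orphan nuclear receptor of the NR4A family that acts as a transcription factor without a known ligand, was higher in cold brown fat. It had 45.4, 22.3, 22.0 and 35.5 CPM in BAT_5C replicates 1 to 4, against 9.65, 8.89, 16.6 and 14.1 CPM in BAT_30C replicates 1 to 4. All BAT_5C libraries lay above all BAT_30C libraries. The log2 fold change of 5 °C over 30 °C was 1.35 ± 0.28 (SE, n = 4 per group; a 2.55-fold difference), with an edgeR quasi-likelihood adjusted p of 0.00242. It was one of 4 of the 10 genes past an adjusted p of 0.05 in brown fat, where 59.5% of all 16213 genes tested were past it. With any 1 library left out, the Nr4a2 estimate was 1.12 to 1.55 and stayed past the threshold.

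Its close relatives did not pass the test. Nr4a1 had 207, 26.4, 5.94 and 104 CPM in BAT_5C replicates 1 to 4, against 53.5, 135, 139.9 and 162 CPM in BAT_30C replicates 1 to 4. The BAT_5C libraries spread over a 34.8-fold range that covered the whole range at 30 °C. The estimate was -0.50, and its 95% interval of -2.34 to 1.34 takes in both lower and higher levels.

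Nr4a3 had 10.2, 4.88, 1.74 and 7.86 CPM in BAT_5C replicates 1 to 4, against 0.48, 13.8, 7.41 and 25.0 CPM in BAT_30C replicates 1 to 4. The widest spread lay in the 30 °C group, where BAT_30C replicate 1 was lowest, and the groups overlapped. Its estimate of -0.92 had a 95% interval of -2.84 to 1.003 and an adjusted p of 0.380. These intervals are too wide to call either gene unchanged.

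In white fat none of the NR4A genes passed the test. Nr4a2 had 5.94, 2.79, 3.40 and 2.73 CPM in WAT_5C replicates 1 to 4, against 1.98, 2.75, 1.86 and 2.40 CPM in WAT_30C replicates 1 to 4. The highest value was that of WAT_5C replicate 1, and the groups overlapped slightly. The estimate was 0.69 ± 0.29 (SE, n = 4 per group) with an adjusted p of 0.267, and 0.37 ± 0.18 (adjusted p = 0.269) without that library. Nr4a1 had 12.9 to 19.2 CPM in WAT_5C and 13.9 to 22.2 CPM in WAT_30C, with an estimate of -0.34 and a 95% interval of -0.77 to 0.10; without WAT_5C replicate 1 the interval was -0.81 to 0.12 around the same estimate. Nr4a3 had 2.77 to 4.86 CPM in WAT_5C, lowest in replicate 1, and 4.13 to 6.21 CPM in WAT_30C. Its estimate was -0.39, with a 95% interval of -0.90 to 0.11, and -0.24, with a 95% interval of -0.60 to 0.12, without that library.

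**Figure D1:**
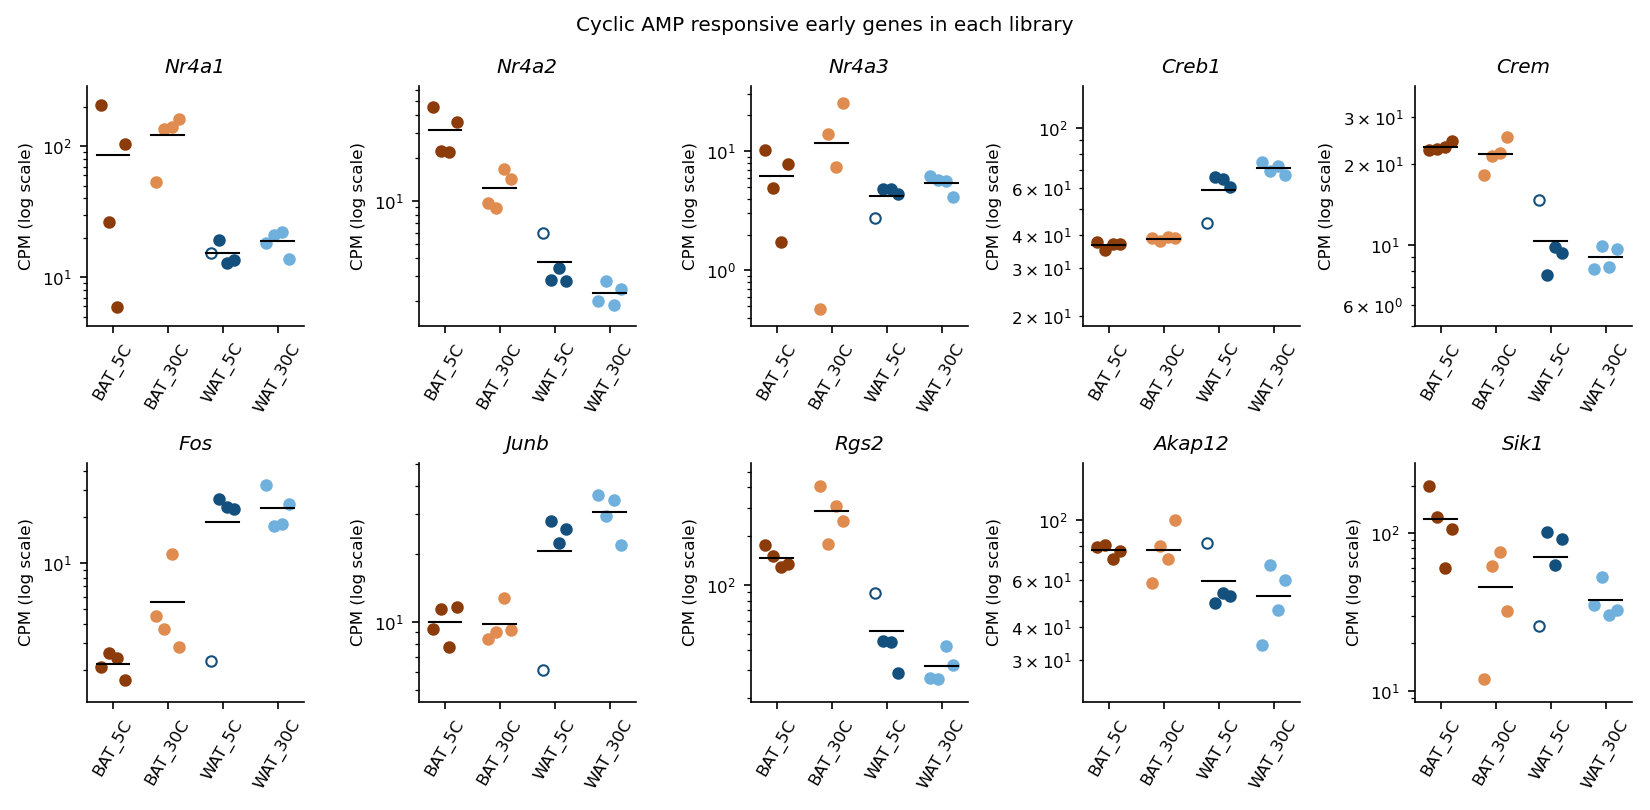
CPM (log scale) of each of the 10 genes in BAT_5C, BAT_30C, WAT_5C and WAT_30C; each point is a library, the black line is the group mean and the open point is WAT_5C replicate 1. Nr4a1 in BAT_5C spans 5.94 to 207 CPM, while Creb1 in BAT_30C spans 38.0 to 39.1 CPM.

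Sik1 encodes salt-inducible kinase 1, which phosphorylates the CRTC coactivators of CREB and keeps them out of the nucleus. It had 201, 127, 60.1 and 106 CPM in BAT_5C replicates 1 to 4, against 11.8, 61.7, 76.3 and 31.9 CPM in BAT_30C replicates 1 to 4. All cold libraries but BAT_5C replicate 3 lay above the 30 °C libraries, and that one lay inside their range. The log2 fold change was 1.45 ± 0.53 (SE, n = 4 per group; 2.73-fold), past the threshold with an edgeR adjusted p of 0.0385. This call rests on single libraries: the adjusted p was 0.109 without BAT_5C replicate 1 (estimate 1.11), 0.0658 without BAT_5C replicate 2, 0.0590 without BAT_5C replicate 4 and 0.0914 without BAT_30C replicate 4. It was also 0.258 in the 4 BAT libraries whose labels match (estimate 1.19). With the replicate number as a block it was 0.0958 (estimate 1.56), but this block joins different temperatures, which cannot share a mouse.

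Sik1 was also the one gene of the 10 that passed in white fat once the library that stands apart was left out. It had 25.7, 102, 63.3 and 91.8 CPM in WAT_5C replicates 1 to 4, against 35.0, 52.9, 30.4 and 32.4 CPM in WAT_30C replicates 1 to 4. WAT_5C replicate 1 was below all 30 °C libraries, whereas the other 3 WAT_5C libraries were above all of them. With all 8 libraries the estimate was 0.88 ± 0.40 (SE, n = 4 per group; adjusted p = 0.283). Without WAT_5C replicate 1 it was 1.15 ± 0.23 (SE, n = 3 and 4; 2.22-fold), just past the threshold with an edgeR adjusted p of 0.0499. The difference between the white fat and the brown fat effect of Sik1 was -0.53, with a 95% interval of -2.07 to 1.0002, and -0.31, with a 95% interval of -1.73 to 1.11, without WAT_5C replicate 1.

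Rgs2, a regulator of G protein signalling that speeds the shut-off of Gq and dampens adenylyl cyclase, was lower in cold brown fat. It had 176, 151, 129 and 135 CPM in BAT_5C replicates 1 to 4, against 406, 179, 305 and 247 CPM in BAT_30C replicates 1 to 4. All BAT_5C libraries lay below all BAT_30C libraries, with BAT_5C replicate 1 and BAT_30C replicate 2 nearest each other. Rgs2 fell by 0.94 ± 0.22 on the log2 scale (SE, n = 4 per group), with an edgeR adjusted p of 0.00437. In the 4 BAT libraries whose labels match, the estimate was -1.15 with an adjusted p of 0.0612.

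In white fat Rgs2 pointed the other way without passing the test. It had 89.5, 45.3, 44.3 and 28.5 CPM in WAT_5C replicates 1 to 4, against 26.5, 26.4, 41.8 and 32.0 CPM in WAT_30C replicates 1 to 4. WAT_5C replicate 1 was the highest, and WAT_5C replicate 4 lay inside the range at 30 °C. The estimate was 0.68 ± 0.33 (SE, n = 4 per group; adjusted p = 0.305) with all libraries and 0.28 ± 0.21 (adjusted p = 0.443) without WAT_5C replicate 1. The temperature effect in WAT minus that in BAT was 1.66 ± 0.43 (edgeR adjusted p = 0.0130), and 1.22 ± 0.33 (adjusted p = 0.0125) without that library. Rgs2 was the one gene of the 10 past the threshold in this comparison, where 20.8% of all 19481 genes tested were past it (12.5% with the WAT effect higher), and 31.3% of 19849 without WAT_5C replicate 1. The other 9 estimates ran from -0.63 for Nr4a2 to 1.04 for Fos, and without WAT_5C replicate 1 from -0.99 for Nr4a2 (adjusted p = 0.0558) to 1.36 for Fos (adjusted p = 0.0538). Of the genes called, 60% were higher with TMM, 49.5% with relative log expression factors and 70.7% with library totals.

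Fos encodes the AP-1 subunit c-Fos, whose gene answers within minutes to cyclic AMP and to many other stimuli. It had 2.09, 2.58, 2.38 and 1.71 CPM in BAT_5C replicates 1 to 4, against 4.50, 3.66, 11.4 and 2.80 CPM in BAT_30C replicates 1 to 4. Every BAT_5C library was below every BAT_30C library, and BAT_30C replicate 3 was far above the rest. Fos fell by 1.35 ± 0.41 on the log2 scale (SE, n = 4 per group), with an edgeR adjusted p of 0.0168. Without BAT_30C replicate 3 the estimate was -0.71 (adjusted p = 0.0238), limma-voom gave -0.96 with an adjusted p of 0.0614, and the fit of all 16 libraries gave an adjusted p of 0.0696.

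In white fat a single library decided the picture for Fos. It had 2.29, 26.2, 23.2 and 22.6 CPM in WAT_5C replicates 1 to 4, against 32.4, 17.4, 18.0 and 24.3 CPM in WAT_30C replicates 1 to 4. WAT_5C replicate 1 lay at the brown fat level, while the other 3 lay within the range at 30 °C. The estimate was -0.34, with a 95% interval of -1.72 to 1.05, and without WAT_5C replicate 1 it was 0.03, with a 95% interval of -0.46 to 0.51.

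Junb, a JUN-family partner of c-Fos in AP-1, had 7.77 to 11.7 CPM in BAT_5C and 8.41 to 12.7 CPM in BAT_30C. Its ranges overlapped almost wholly, and its estimate of 0.03 had a 95% interval of -0.36 to 0.42. In WAT it had 6.16, 28.1, 22.5 and 25.8 CPM in WAT_5C replicates 1 to 4, against 36.4, 29.6, 34.8 and 21.9 CPM in WAT_30C replicates 1 to 4. As for Fos, WAT_5C replicate 1 was the lowest. The estimate of -0.60 (95% interval -1.55 to 0.35) was -0.30 (95% interval -0.70 to 0.10) without that library. Junb shares 173 of its 2301 exon bases (7.52%) with Prdx2 on the opposite strand, so reads of that stretch cannot be told apart without strand.

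Creb1 encodes the transcription factor CREB itself, and its level was steady in brown fat. It had 35.2 to 37.6 CPM in BAT_5C and 38.0 to 39.1 CPM in BAT_30C, so the groups did not overlap although the estimate was only -0.08, with a 95% interval of -0.19 to 0.03 and an adjusted p of 0.211. In WAT it had 44.1, 65.8, 64.5 and 60.3 CPM in WAT_5C replicates 1 to 4, against 74.5, 69.2, 71.9 and 67.0 CPM in WAT_30C replicates 1 to 4. Here too all cold libraries lay below all 30 °C libraries, and WAT_5C replicate 1 was the lowest. The estimate was -0.30 (95% interval -0.60 to 0.0025, adjusted p = 0.278), and -0.19 (95% interval -0.35 to -0.03, adjusted p = 0.160) without that library.

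Crem, which encodes activators and, from an internal promoter, the repressor ICER, had 22.5 to 24.4 CPM in BAT_5C and 18.3 to 25.3 CPM in BAT_30C. The cold libraries lay within the range of the others, and the estimate of 0.09 had a 95% interval of -0.12 to 0.31. In WAT it had 7.73 to 14.7 CPM at 5 °C, with WAT_5C replicate 1 on top, and 8.16 to 9.92 CPM at 30 °C. The estimate there was 0.18 (95% interval -0.28 to 0.63), and -0.04 (95% interval -0.33 to 0.25) without that library. Gene counts do not separate ICER from the longer Crem transcripts, and 472 of the 5895 exon bases of Crem (8.01%) overlap Gm6225 on the opposite strand.

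Akap12 encodes a scaffold that anchors protein kinase A near the beta-adrenergic receptor. It had 71.8 to 80.7 CPM in BAT_5C and 58.2 to 100.4 CPM in BAT_30C, and the estimate of -0.01 had a 95% interval of -0.32 to 0.31. In WAT it had 82.3, 49.1, 53.4 and 52.1 CPM in WAT_5C replicates 1 to 4, against 34.2 to 67.9 CPM in WAT_30C. WAT_5C replicate 1 was above every other WAT library. The estimate of 0.16 (95% interval -0.40 to 0.72) was -0.05 (95% interval -0.53 to 0.44) without it.

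In brown fat, then, 2 of the 10 genes were higher at 5 °C (Nr4a2, Sik1), 2 were lower (Fos, Rgs2) and 6 did not pass the test, beside 29.2% of all genes higher and 30.3% lower. The median log2 fold change of the 10 was -0.04, against -0.05 over all genes tested. Scaling by library totals instead put the median of all genes at -0.43 and the higher ones at 20.8% of the genes called, where TMM had 49.1%; Creb1, Crem and Akap12 then passed as lower, at -0.46, -0.28 and -0.38, and Sik1 did not pass (1.08, adjusted p = 0.0905). In white fat 0 of the 10 passed by edgeR with all 8 libraries, 1 had an unadjusted p under 0.05 (Nr4a2, 0.0408), DESeq2 called 0 and limma-voom called Sik1. Of all 18975 genes tested there, 0.0632% were past the threshold by edgeR and 3430 had an unadjusted p under 0.05. DESeq2 called 1122 of them and limma-voom 2268. Without WAT_5C replicate 1, 2.11% of 19320 were past the threshold by edgeR (1.84% higher). The median log2 fold change of the 10 was -0.07 in WAT and -0.05 without that library, against -0.01 and -0.02 over all genes tested.

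**Figure D2:**
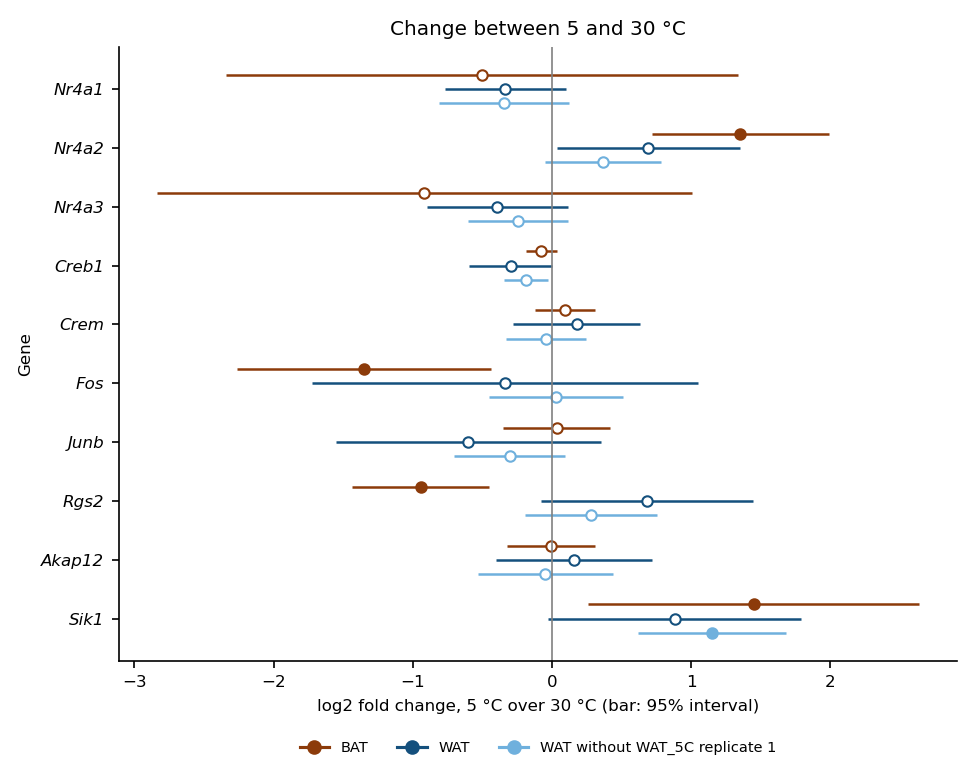
Log2 fold change of 5 °C over 30 °C for each gene, in BAT, in WAT and in WAT without WAT_5C replicate 1; bars are 95% intervals and filled points passed an adjusted p of 0.05. In BAT Nr4a2 and Sik1 lie right of 0 and Fos and Rgs2 left of it, the bars of Nr4a1 and Nr4a3 are the widest of the BAT bars drawn, and Sik1 is the one filled point of white fat.

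The spread within a group differed greatly between these genes. In BAT_5C the SD of log2 CPM over the 4 libraries was 2.26 for Nr4a1, above that of 99.3% of the 13031 genes with a group mean of at least 1 CPM, whose median was 0.12. For Nr4a3 it was 2.48 in BAT_30C, above 99.6% of 13373 genes, and for Sik1 1.21 in BAT_30C, above 99% of them. Creb1 was at the other end, with an SD of 0.02 in BAT_30C, above only 0.426% of genes. In WAT_30C the SD of the 10 genes ran from 0.07 for Creb1 to 0.44 for Akap12.

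In cold brown fat the NR4A genes, Sik1 and Rgs2 shared their highest and lowest libraries. Within BAT_5C, Nr4a1, Nr4a2 and Nr4a3 had the same order of libraries: replicate 1 was highest, then 4, then 2, then 3. Sik1 and Rgs2 were also highest in replicate 1 and lowest in replicate 3, with replicate 2 above 4. Within BAT_30C the orders of the NR4A genes and Sik1 all differed. Replicate 1 was the lowest for Nr4a1, Nr4a3 and Sik1 and replicate 2 for Nr4a2. The highest was replicate 4 for Nr4a1 and Nr4a3 and replicate 3 for Nr4a2 and Sik1. In BAT_30C Rgs2 was highest in replicate 1 and lowest in replicate 2. In BAT_5C replicate 1 and BAT_30C replicate 1, the summed T and NK cell markers were 5.23 and 12.0 CPM and the macrophage and myeloid markers 242 and 275 CPM, both within the range of their groups. Sums of several other lists lay at the edge of their groups. BAT_30C replicate 1 was lowest for brown adipocyte (3159 CPM), adipocyte (14410 CPM) and endothelial markers (1597 CPM). It was highest for fibroblast and stromal (1369 CPM), skeletal muscle (1424 CPM) and Schwann and nerve markers (254 CPM). BAT_5C replicate 1 was highest for adipocyte and endothelial markers, and lowest for Schwann and nerve and mammary epithelium markers. Whether any of these cells had a part in this spread was not tested.

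Across all 11375 genes with a mean of at least 5 CPM, those nearest to Nr4a1 in their deviations from the 4 group means were Plk3, Gem and Irs2. Their root mean square differences from Nr4a1 over the 16 libraries were 0.68, 0.74 and 0.77 log2 units, where Nr4a1 alone has 1.04. Plk3 encodes a polo-like kinase, Gem a small GTPase and Irs2 an adaptor of insulin signalling. Of the other genes described here Nr4a2 ranked 15, Sik1 26 and Nr4a3 81 by nearness to Nr4a1, whereas Fos ranked 11018. The libraries that set this likeness are few, chiefly BAT_5C replicates 1 and 3, and all genes share the depth and scaling of their library.

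Fos went with other genes. Its nearest were Tmc4, Hap1 and Syne4, at 0.30, 0.32 and 0.34 log2 units, where Fos alone has 0.85, and Junb ranked 62. In WAT_5C replicate 1 the deviations of Tmc4, Hap1 and Syne4 from their group mean were -2.41, -2.24 and -2.75, so this one library carries most of the likeness. The summed mammary epithelium markers were also low in that library, as given above, and their part in the level of Fos was not tested.

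**Figure D3:**
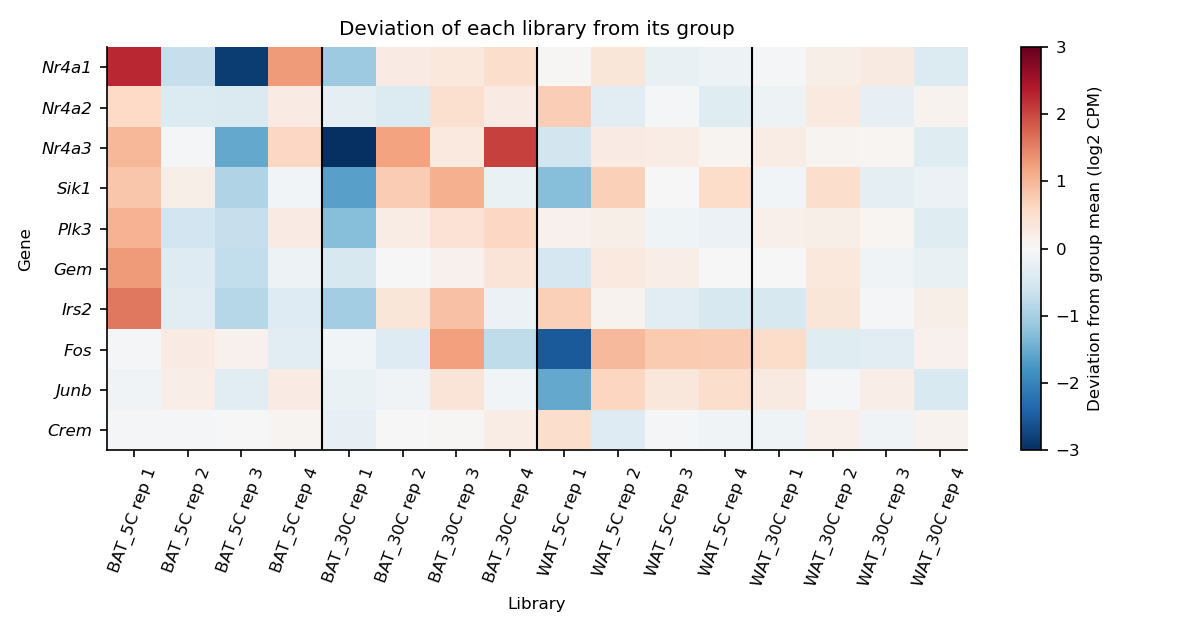
Deviation of each library from its group mean (log2 CPM, colour limits at -3 and 3) for 7 of the 10 genes and for Plk3, Gem and Irs2; columns are the 16 libraries in their 4 groups. The NR4A rows and Sik1 are red in BAT_5C replicate 1, Nr4a1, Nr4a3 and Sik1 are blue in BAT_30C replicate 1, and Fos and Junb are blue in WAT_5C replicate 1.

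Other immediate early genes, a list of 32 that includes the EGR, KLF and remaining AP-1 families, fell more often than they rose in cold brown fat. Of the 32, all tested, 3 were higher and 16 lower at 5 °C by edgeR, beside 29.2% and 30.3% of all genes, with a median log2 fold change of -0.73. With any 1 library left out, 18 to 22 of them passed, beside 8742 to 9295 of all genes. Zfp36, whose product destabilises cytokine mRNAs, fell by 1.19 ± 0.11 on the log2 scale (SE, n = 4 per group; adjusted p = 1.15e-05). It averaged 21.4 ± 2.08 CPM in BAT_5C and 49.0 ± 6.81 CPM in BAT_30C (SD, n = 4 each). Myc fell by 1.87 ± 0.23, to 4.17 ± 1.26 CPM in BAT_5C against 15.3 ± 2.65 CPM in BAT_30C, and Ier2 fell by 1.003 ± 0.12. Maff, a small MAF transcription factor, went the other way: it had 28.1 to 54.8 CPM in BAT_5C and 2.91 to 6.54 CPM in BAT_30C, a log2 fold change of 3.10 ± 0.30 (adjusted p = 1.91e-05). The other 2 that rose were Ier3, by 2.10 ± 0.44, and Dusp6, by 0.92 ± 0.24.

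Cell type markers differed in brown fat too, in both directions, beside 29.2% of all genes higher and 30.3% lower at 5 °C. Of 12 T and NK cell markers 9 were lower in BAT_5C than in BAT_30C and 0 higher, and their summed level was 3.11 to 7.37 CPM at 5 °C, against 9.46 to 13.6 CPM at 30 °C. Of 8 fibroblast and stromal markers 5 were lower and 0 higher, with sums of 760 to 1117 CPM at 5 °C, against 1164 to 1369 CPM at 30 °C. Of 10 macrophage and myeloid markers 1 was lower and 0 higher, with overlapping sums of 232 to 323 CPM and 266 to 335 CPM at 5 and 30 °C. No marker of these lists was at 0 in every library of a BAT group. Of 11 brown adipocyte markers 6 were higher and 2 lower, and of 10 adipocyte markers 5 were higher and 3 lower. Of 10 endothelial markers 5 were higher and 4 lower, and of 7 Schwann and nerve markers tested 2 were higher and 0 lower. Of the skeletal muscle and mammary epithelium markers tested 0 passed. In bulk tissue fewer cells of a type and less RNA per cell cannot be told apart, and the part of these cells in the fall of Fos, Rgs2 and the other early genes was not tested.

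In white fat the same 32 genes gave 0 calls by edgeR and 9 at an unadjusted p under 0.05, beside 3430 of all 18975 genes. DESeq2 gave 4 calls and limma-voom 7, beside 1122 and 2268 among all genes. The median log2 fold change of the 32 was -0.40, against -0.01 over all genes. The 3 with the lowest adjusted p were Klf2, Zfp36 and Jund, at -0.67, -0.59 and -0.53. Without WAT_5C replicate 1 the median was -0.33, and 28 of the 32 had negative estimates. With that library out, 17 of the 32 had an unadjusted p under 0.05 by edgeR, beside 4483 of all 19320 genes. Zfp36 and Jund were at -0.48 and -0.44, and Klf2, a transcription factor prominent in endothelium, passed: it fell by 0.55 ± 0.09 on the log2 scale (adjusted p = 0.0256). It had 45.3 to 50.0 CPM in the other 3 WAT_5C libraries and 60.2 to 73.0 CPM in WAT_30C, which do not overlap. Cell type markers differed here too, in both directions. All 12 T and NK cell markers had negative estimates without that library, and 0 passed. By edgeR, beside 4483 of all 19320 genes tested, 10 of these 12 markers had an unadjusted p under 0.05. Their sums were 471 to 569 CPM in the 3 WAT_5C libraries, against 594 to 862 CPM in WAT_30C, while fibroblast and stromal markers summed to 3769 to 4783 CPM, against 2331 to 3674 CPM, and endothelial markers to 642 to 716 CPM, against 545 to 692 CPM. Skeletal muscle markers, 10 of 10 tested with negative estimates, summed to 21.6 to 236 CPM, against 121 to 9621 CPM. Adipocyte markers summed to 5756 to 8669 CPM, against 3703 to 6359 CPM. Macrophage and myeloid markers summed to 1352 to 1872 CPM, against 1062 to 1365 CPM. The part of these cell types in the levels of the early genes was not tested.

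**Figure D4:**
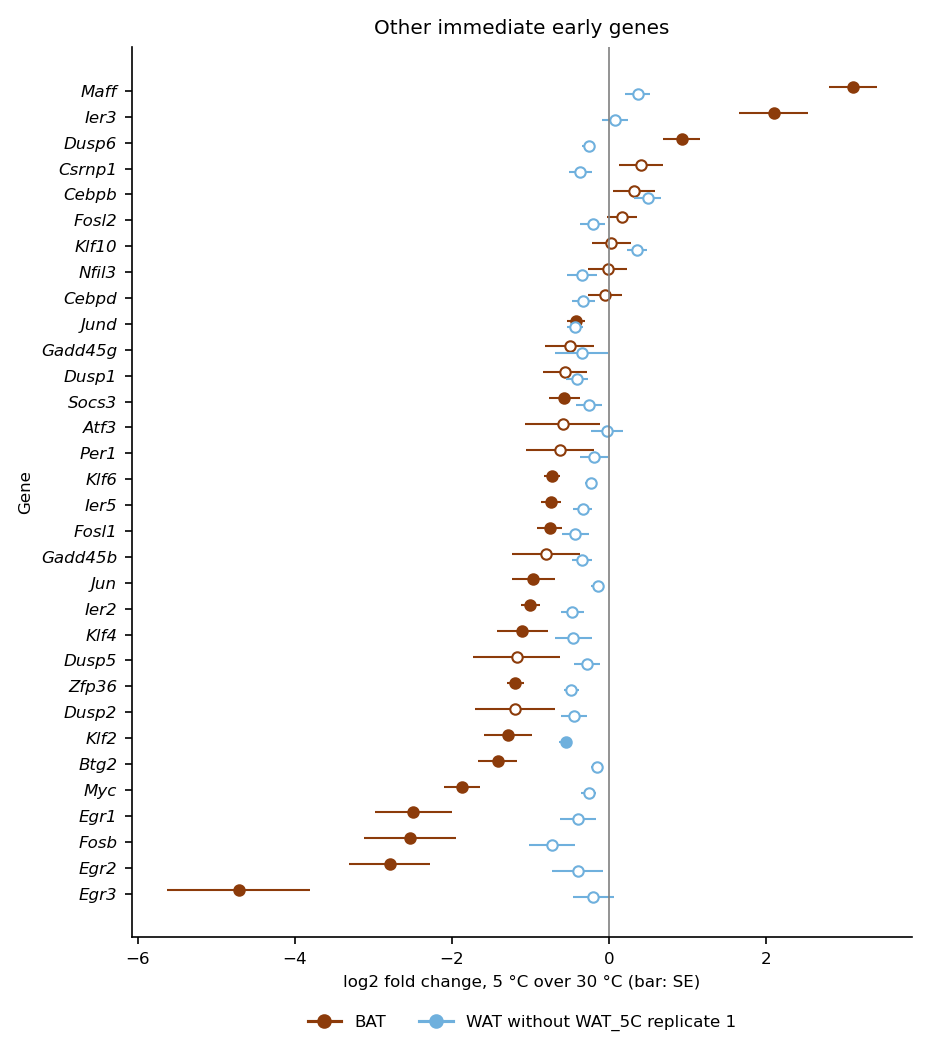
Log2 fold change of 5 °C over 30 °C for the 32 other immediate early genes in BAT and in WAT without WAT_5C replicate 1; bars are SE and filled points passed an adjusted p of 0.05. In BAT 3 filled points lie right of 0 (Maff, Ier3, Dusp6) and 16 left of it, and Klf2 is the one filled point of white fat.

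Upstream of these genes, 9 genes for the subunits and inhibitors of protein kinase A were examined. In cold brown fat 4 subunit genes (Prkaca, Prkar1a, Prkar2a, Prkar2b) and the inhibitor gene Pkig were higher and 1 gene was lower by edgeR, beside 29.2% and 30.3% of all genes. Scaling by library totals left 1 higher and 2 lower, beside 2323 and 8831 of all 16213 genes. The fit of all 16 libraries left 2 higher and 0 lower, beside 4068 and 4608 of 19481. Pkig, an inhibitor of the catalytic subunit, was higher by 0.63 ± 0.08 on the log2 scale (adjusted p = 0.000116), the regulatory subunit gene Prkar1a by 0.36 ± 0.06 and the catalytic subunit gene Prkaca by 0.46 ± 0.09. Prkaca averaged 472 ± 20.8 CPM in BAT_5C and 344 ± 42.7 CPM in BAT_30C (SD, n = 4 each). The 1 that fell was Pkia, another inhibitor, by 1.42 ± 0.38. In WAT 0 of the 9 passed by edgeR with or without WAT_5C replicate 1. With all 8 libraries 2 had an unadjusted p under 0.05, beside 3430 of all 18975 genes. DESeq2 and limma-voom called 2 each, beside 1122 and 2268 among all genes. Prkar2b and Prkaca had the lowest edgeR adjusted p, at 0.182 and 0.190, with estimates of 1.42 and 1.04. WAT_5C replicate 1 was the highest WAT library for both, at 706 CPM of Prkar2b, against 178 to 313 CPM in the other WAT_5C libraries, and 270 CPM of Prkaca, against 93.3 to 148 CPM. Without it the estimates were 0.91 (adjusted p = 0.0696) and 0.66 (adjusted p = 0.0729).

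The relatives and coactivators of CREB were split. Of 10 such genes, SIK kinases included, 2 were higher (Atf1, Sik3) and 4 lower (Ep300, Atf7, Crebbp, Crtc2) in cold brown fat, 6 of 10 beside 59.5% of all genes. Ep300, a histone acetyltransferase that binds CREB, fell by 0.54 ± 0.07 on the log2 scale (adjusted p = 0.000104) and Atf7 fell by 0.50 ± 0.08, while Atf1, a CREB-like factor, was higher by 0.30 ± 0.06. Leaving out BAT_5C replicate 2 brought the 6 calls to 3, beside 9295 of all 16533 genes. The 4 BAT libraries whose labels match gave 2, beside 6058 of 16535. Of 14 genes for other AKAP anchoring proteins 11 were tested, with 2 higher (Akap7, Akap10) and 3 lower (Akap8, Akap1, Akap5). In the 4 matching libraries 2 passed, beside the same 6058 of 16535 genes. Akap8 fell by 0.39 ± 0.06, and Akap7 and Akap10 were higher by 0.44 ± 0.07 and 0.38 ± 0.07. Of 11 other small RGS genes 7 were tested, with Rgs4 higher by 0.64 ± 0.21, and Rgs19 and Rgs16 lower, at -0.85 ± 0.11 and -0.87 ± 0.26. Library totals and no filter each gave 5 calls, beside 11154 of 16213 and 9663 of 27788 genes. The shares of AKAP and RGS genes called, 5 of 11 and 3 of 7, lay below that of all genes.

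In WAT none of these 3 lists had a gene past the threshold by edgeR, with or without WAT_5C replicate 1. With all 8 libraries 0 of the 10 CREB relatives, 3 of 10 AKAP genes and 2 of 10 RGS genes had an unadjusted p under 0.05. Over all 18975 genes tested 3430 did. DESeq2 called 0 in each list, beside 1122 of all genes, and limma-voom called 0, 3 and 1, beside 2268 of all genes. The lowest adjusted p of each list belonged to Crtc3 (0.310), Akap1 (0.241) and Rgs4 (0.244), and without WAT_5C replicate 1 these genes were at 0.318, 0.136 and 0.234.

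Most genes on a list of the thermogenic programme were higher in cold brown fat. Of these 12 genes, listed for their known response to cold or cyclic AMP, 10 were higher and 0 lower in BAT_5C, beside 29.2% and 30.3% of all genes, and Ppargc1a and Irf4 did not pass. Elovl3, a fatty acid elongase, was higher by 11.4 ± 0.52 on the log2 scale (adjusted p = 2.01e-07), Gk, glycerol kinase, by 3.07 ± 0.29 and Otop1, a proton channel, by 2.34 ± 0.21. Ucp1 was higher by 3.30 ± 0.38 and Dio2, the enzyme that activates thyroid hormone, by 2.76 ± 0.63. In WAT Dio2 alone passed among the 11 of the list that were tested (4.33 ± 0.50, adjusted p = 0.0407), at 2.79 to 12.0 CPM in WAT_5C and 0.22 to 0.42 CPM in WAT_30C. Without WAT_5C replicate 1, 5 of the 11 passed as higher (Dio2, Ucp1, Elovl3, Cidea, Otop1), beside 1.84% of all genes, with Dio2 at 4.44 ± 0.50 and Ucp1 at 9.92 ± 1.401. With all libraries DESeq2 called 8 of the 11 and limma-voom 7, beside 1122 and 2268 of all 18975 genes. By edgeR without WAT_5C replicate 2, 7 passed, beside 273 of 19312 genes. With any 1 WAT_30C library, WAT_5C replicate 3 or WAT_5C replicate 4 left out, 0 passed, but then only 0 or 1 of all genes passed either. The count was also 0 at an adjusted p of 0.01 and with the replicate block, where 0 of all genes passed.

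Between the tissues, 7 or 8 of the 10 genes differed, in both directions. At 5 °C, 4 were higher in brown than in white fat (Nr4a1, Nr4a2, Crem, Rgs2) and 3 lower (Creb1, Fos, Junb), 7 of 10 beside 72.4% of all 19481 genes tested (31.8% higher, 40.5% lower). Without WAT_5C replicate 1 the count at 5 °C was 8, beside 76.2% (34% higher, 42.2% lower), with Akap12 added at 0.57 ± 0.20. At 30 °C the same 7 and Akap12, higher in brown fat, made 8 of 10 beside 69.8% of all genes (34.5% higher, 35.3% lower). Shares near the background are no result about these genes as a set. Scaling by library totals put the median log2 difference of all genes at -1.12 at 5 °C and -0.88 at 30 °C, where TMM put it at -0.19 and -0.03. The higher ones among the genes called were then 13.2% and 16.3%, where TMM had 44% and 49.4%.

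Rgs2 averaged 148 ± 21.1 CPM in BAT_5C and 51.9 ± 26.2 CPM in WAT_5C (SD, n = 4 each), a log2 difference of 1.51 ± 0.31 (edgeR adjusted p = 0.000454). At 30 °C it differed most of the 10, at 284 ± 96.1 CPM in BAT_30C and 31.7 ± 7.21 CPM in WAT_30C, a log2 difference of 3.17 ± 0.33 and an 8.98-fold higher level (adjusted p = 8.13e-07). Nr4a2 was 8.44-fold higher in BAT at 5 °C and 5.47-fold higher at 30 °C, with no overlap of libraries at either temperature. Nr4a1 was higher by 2.49 ± 0.71 at 5 °C and 2.70 ± 0.71 at 30 °C on the log2 scale. At 5 °C its libraries overlapped, since BAT_5C replicate 3 lay below all WAT_5C libraries, and the difference was 1.58 without BAT_5C replicate 1. The call was lost with the replicate number as a block (1.58, adjusted p = 0.103), with limma-voom (1.57, adjusted p = 0.0960) and with library totals (1.54, adjusted p = 0.0509). Crem was higher by 1.16 ± 0.16 at 5 °C and 1.27 ± 0.16 at 30 °C, with no overlap of libraries. Without WAT_5C replicate 1, the log2 differences at 5 °C were 3.38 for Nr4a2, 2.49 for Nr4a1, 1.89 for Rgs2 and 1.36 for Crem, all past the threshold.

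Fos, Junb and Creb1 were lower in brown fat. Fos averaged 2.19 ± 0.38 CPM in BAT_5C and 18.6 ± 10.97 CPM in WAT_5C (SD, n = 4 each), a log2 difference of -3.08 ± 0.60 (adjusted p = 0.000305). At 30 °C it averaged 5.58 ± 3.91 CPM in BAT_30C and 23.0 ± 6.99 CPM in WAT_30C, a difference of -2.04 ± 0.57. WAT_5C replicate 1 lay inside the BAT_5C range of Fos, and without it the difference at 5 °C was -3.47 ± 0.39 with no overlap. Junb was at -1.04 ± 0.34 at 5 °C and -1.64 ± 0.34 at 30 °C, and Creb1 at -0.68 ± 0.10 and -0.87 ± 0.10, in Creb1 with no overlap of libraries at either temperature. Without WAT_5C replicate 1 the differences at 5 °C were -1.36 for Junb and -0.81 for Creb1. Summed T and NK cell markers were 9.46 to 13.6 CPM in BAT_30C, against 594 to 862 CPM in WAT_30C. Mammary epithelium markers were 3.91 to 31.1 CPM in BAT_30C, against 1208 to 1977 CPM in WAT_30C, and their part in these tissue differences was not tested.

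Akap12, Nr4a3 and Sik1 were less settled. Akap12 was higher in BAT at 30 °C by 0.58 ± 0.21 (adjusted p = 0.0239), a call lost without BAT_30C replicate 4 (adjusted p = 0.0902), WAT_30C replicate 1 (0.0762) or WAT_30C replicate 3 (0.0619). At 5 °C Akap12 was at 0.38, with a 95% interval of -0.07 to 0.83 (edgeR adjusted p = 0.117), and at 0.57 (adjusted p = 0.0169) without WAT_5C replicate 1. With library totals it was -0.51 at 5 °C, past the threshold, and -0.27 at 30 °C. Nr4a3 was at 1.11, with a 95% interval of -0.40 to 2.63, at 30 °C, and without BAT_30C replicate 1 at 1.52 with an adjusted p of 0.0111. At 5 °C Nr4a3 was at 0.55, with a 95% interval of -0.96 to 2.07, and at 0.39 without WAT_5C replicate 1. Sik1 was at 0.80, with a 95% interval of -0.29 to 1.89, at 5 °C, at 0.51 (95% interval -0.54 to 1.56) without that library, and at 0.27, with a 95% interval of -0.82 to 1.36, at 30 °C.

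**Figure D5:**
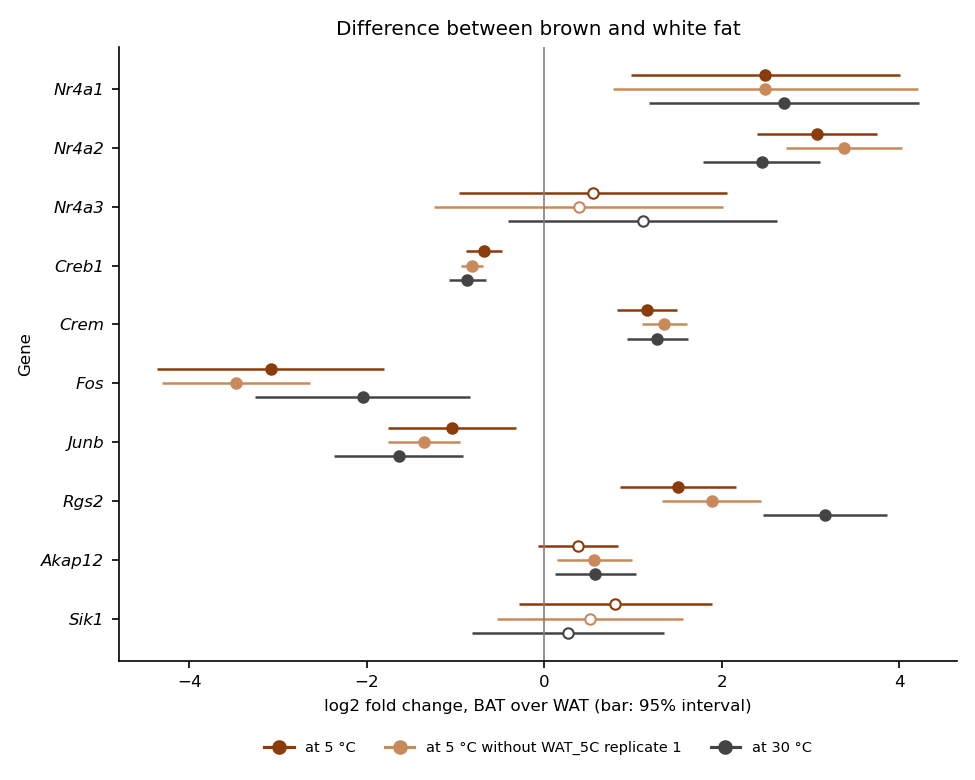
Log2 fold change of BAT over WAT for each gene at 5 °C, at 5 °C without WAT_5C replicate 1, and at 30 °C; bars are 95% intervals and filled points passed an adjusted p of 0.05. Nr4a1, Nr4a2, Crem and Rgs2 lie right of 0 with filled points in all 3 rows, Creb1, Fos and Junb lie left of it, and Nr4a3 and Sik1 have open points.

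Levels were also compared per kilobase of exon in GENCODE M21, which may not be the annotation used for counting. The order of the genes differed between BAT_5C and WAT_30C, which differ in both tissue and temperature. In BAT_5C mean levels ran from Rgs2 (40.7 ± 5.83 CPM per kilobase; SD, n = 4) through Nr4a1 (24.5 ± 26.0), Sik1 (24.1 ± 11.4), Akap12 (11.9 ± 0.60), Nr4a2 (7.71 ± 2.79), Junb (4.37 ± 0.81), Crem (3.94 ± 0.14), Creb1 (2.67 ± 0.08) and Nr4a3 (1.03 ± 0.61) to Fos (0.93 ± 0.16). Of neighbours in this order, Rgs2 and Nr4a1, Nr4a1 and Sik1, Junb and Crem, and Nr4a3 and Fos differed by less than the larger of their SDs. In WAT_30C the order was Junb (13.3 ± 2.83), Fos (9.79 ± 2.97), Rgs2 (8.73 ± 1.99), Akap12 (8.05 ± 2.30), Sik1 (7.34 ± 2.02), Nr4a1 (5.37 ± 1.06), Creb1 (5.14 ± 0.24), Crem (1.53 ± 0.16), Nr4a3 (0.90 ± 0.15) and Nr4a2 (0.55 ± 0.10). There, by the same measure, each neighbouring pair from Fos down to Creb1 differed by less than the larger SD. Fos, which came last in cold brown fat, stood next to Junb at the head of the order in white fat at 30 °C. The order also shifted within brown fat. Nr4a2 lay above Junb in BAT_5C but below it in BAT_30C (3.03 ± 0.90, against 4.28 ± 0.85), each time by more than the larger SD. In BAT_30C Nr4a3 came last (1.95 ± 1.74), Fos was at 2.37 ± 1.66, and Sik1 (8.85 ± 5.66) lay below Akap12 (12.0 ± 2.73). There Nr4a3 and Fos, and Sik1 and Akap12, differed by less than the larger SD, so their order is not settled.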

How the data were processed

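The authors deposited a table of raw counts per Ensembl gene for 16 libraries. Trim Galore and TopHat were used, per the submitters' processing notes, which give no versions. How reads were counted, on which build and annotation, and whether by strand, is not given in the sources used here. The labels' protocols name a TruSeq RNA kit. Symbols were matched by identifier.

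After a filter on low counts (filterByExpr, at least 10 counts and a total of 15) and TMM scaling, groups were compared with the quasi-likelihood test of edgeR 4.0.16 in R 4.3.3, with Benjamini-Hochberg adjustment over all genes tested and a threshold of 0.05. BAT and WAT were fitted apart for temperature; the difference between these effects and the tissue differences came from one fit of 16 libraries. DESeq2 1.42.0 and limma-voom with quality weights (limma 3.58.1) were alternatives. The BAT and WAT temperature fits were also run on simulated counts. These held no outlying library and no gene of unusual spread, so they do not cover WAT_5C replicate 1 or genes such as Nr4a1. log2 CPM used a prior count of 2.

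The genes and lists were chosen with earlier results of these data known. Of the other lists, up to 3 genes with the lowest adjusted p in BAT, in WAT and in WAT without WAT_5C replicate 1 are named, with Ucp1, Dio2 and members of counts of 5 or fewer. All 24 pairs of libraries within groups differed by more than sampling noise (chi-square per degree of freedom at least 21.4). Promoter sequences are from RefSeq.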

Additional observations from a re-analysis of the deposited data

Results flagged for a closer look

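In 40 sets of 4 libraries (10 genes in 4 groups), the highest or lowest library was compared with the rest of its group by Dixon's criterion, which chance passes in about 1 in 20 sets. It picked out WAT_5C replicate 1 for both genes that passed. Fos had 2.29 CPM there, and its nearest neighbour in the group had 22.6 CPM. Akap12 had 82.3 CPM there, and its nearest neighbour had 53.4 CPM. This is the library with 3 counts of Xist and 17183 counts of Y-linked genes.

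The temperature effect on Rgs2 in WAT differed from that in BAT by 1.66 on the log2 scale, by the tested difference of the 2 effects. It was 0.68 in WAT and -0.94 in BAT.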

How the results depend on the processing

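Of 1020 estimates of the 10 genes over the comparisons and alternative settings, 962 kept their direction and their side of the threshold, 21 lost a call, 8 gained one and 29 changed sign, of which 2 were past the threshold. Of the 10 genes, 4 passed in BAT, beside 9647 of all 16213 genes. At an adjusted p of 0.01, 2 did, beside 7396 of 16213. In the 4 BAT libraries with matching labels 2 did (Nr4a2 and Fos), beside 6058 of 16535. With any 1 library left out 3 to 4 did, beside 8742 to 9295 of all genes. In WAT 0 passed, beside 12 of all 18975 genes, but 1 did with limma-voom, beside 2268. With a library left out 0 to 1 passed, beside 0 to 408 of all genes. For the difference of the 2 effects 1 passed, beside 4055 of all 19481 genes, but 0 at an adjusted p of 0.01, beside 2109. With any library left out 1 passed. Between the tissues 7 to 9 passed at 30 °C and 7 to 8 at 5 °C with a library left out. The cause of these shifts was not tested. 

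The 2 sign changes past the threshold came with library totals: Crem at -0.28 in BAT (adjusted p = 0.0133) and Akap12 at -0.51 between tissues at 5 °C (adjusted p = 0.0138). Library totals also turned Akap12 between tissues at 30 °C (-0.27) and in WAT (-0.14), Crem in WAT (-0.13), Junb in BAT (-0.35), Nr4a3 between tissues at 5 °C (-0.43), and Sik1 at 30 °C (-0.60) and 5 °C (-0.21). Akap12 in BAT, at -0.01, was 0.11 in the matching libraries, 0.014 with DESeq2 and with relative log expression factors, 0.018 with the replicate block, and -0.11 to 0.16 with a library left out. Leaving out single libraries also took Junb in BAT from -0.053 to 0.20, Akap12 in WAT from -0.049 to 0.32, Crem in WAT from -0.041 to 0.29 and Fos in WAT from -0.56 to 0.027, with limma-voom at 0.022 for Fos. The difference of the 2 effects ran from -0.048 to 0.35 for Akap12, from -0.14 to 0.23 for Crem, from -0.18 to 1.12 for Nr4a1 and from -0.13 to 0.96 for Nr4a3. Sik1 between the tissues at 30 °C ran from -0.10 to 0.59.

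Same-numbered BAT and WAT libraries of one temperature deviated together by correlations of -0.24 to 0.29, so the numbers were not shown to pair the libraries. With the replicate block, Sik1 in BAT lost its call (1.56, adjusted p = 0.0958) and so did Nr4a1 between tissues at 5 °C (1.58, adjusted p = 0.103), while Akap12 there gained one (0.41, adjusted p = 0.0200). In the fits of one tissue the block joins different temperatures, which cannot share a mouse. In WAT as a whole the block left 0 genes called and 12 were called without it; DESeq2 called 1122, limma-voom 2268, the fit of all 16 libraries 1587, library totals 82 and no filter 25.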
